A study of Schizosaccharomyces pombe with 2 samples.

Results

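Windows of chromosome 2 with little RNA signal on either strand in wild-type fission yeast (Schizosaccharomyces pombe) were followed in 2 histone chaperone mutants. The windows were selected on the wild-type signal of the arrays. The long tiled block of chromosome 2, without 4 intervals left out by the rule (the centromere and mating-type intervals and a pair of loci that are strongly raised in the mutants), was divided into windows of 1 kb, and each strand of a window with at least 3 probes was given the median over its probes of the log2 net median intensity, averaged over the wild-type channels of both arrays. A window was chosen when both of its strands lay below the median of all these values, which was 9.02 on the log2 scale or about 520 intensity units. The rule chose 224 windows of 1901 (11.8%), out of 2204 windows that the arrays tile in all. They lay between 1007001 and 3049000 of chromosome 2. Of the remaining windows of the interval, 1453 were low on 1 strand and 224 were high on both. The counts of windows low on both and high on both are equal by construction, because the threshold is the median.

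The mutant on the first array carried the allele asf1-1, and the mutant on the other array lacked hip1 (∆hip1). Mutant RNA was labelled with Cy5 (red) and wild-type RNA with Cy3 (green) on both arrays. All cultures, mutant and wild type, were in logarithmic growth in rich medium (YEA) at 30 °C, and total RNA was depleted of ribosomal RNA, reverse-transcribed and labelled indirectly. With 1 array for each mutant and the dyes never exchanged, nothing could be tested and no p-value is given, and a difference between RNAs cannot be told apart from a difference between dyes. The sources used here give neither other alleles of the strains nor whether both wild-type channels held the same extract. RNA came from whole cultures, so a change in few cells and a smaller change in all cells cannot be told apart.

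Asf1 is a chaperone that carries histones H3 and H4 and hands them on for nucleosome assembly. Hip1 is a subunit of HIRA, the chaperone complex that deposits H3 and H4 independently of DNA replication and works with Asf1. In fission yeast these chaperones are known for silencing at heterochromatin and at retrotransposons, and for limiting transcription that starts inside genes or runs antisense to them. The fission yeast genome is compact, and most of its euchromatin lies in or close to a gene. Stretches with little RNA on either strand in rich medium can hold genes that are used under other conditions, such as meiosis or nutrient stress. The array files name no gene for a probe, and the sources used here do not give the genome build of its position, so the windows are described by position and strand and no gene is named.

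Every strand of the 224 windows carried 10 probes of 60 bases, 4480 probes in all. Ratios used 4438 of them, with 8 to 10 probes per window and strand, after 42 outlier spots were left out. The wild-type level of the 448 window-strands (1 strand of 1 window) ran from 4.34 to 9.01 on the log2 scale, with a median of 6.99. The low strands of the 1453 windows low on 1 strand had a median of 6.70, so the windows low on both strands were not the dimmest strands of the interval. The strands of a chosen window differed in wild-type level by a median of 1.02 (log2), and by 1 or more in 120 of 224 windows. The plus strand was the brighter in 122 windows and the minus strand in 102. In 95 windows the brighter strand lay within 1 log2 unit of the threshold. Just inside the threshold, the minus strands of the windows starting at 1449001, 1486001 and 2913001 each had a wild-type level of 9.01. Just outside it, the minus strands of the windows starting at 2558001, 2652001 and 2263001 had wild-type levels of 9.02, 9.05 and 9.07.

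**Figure D1:**
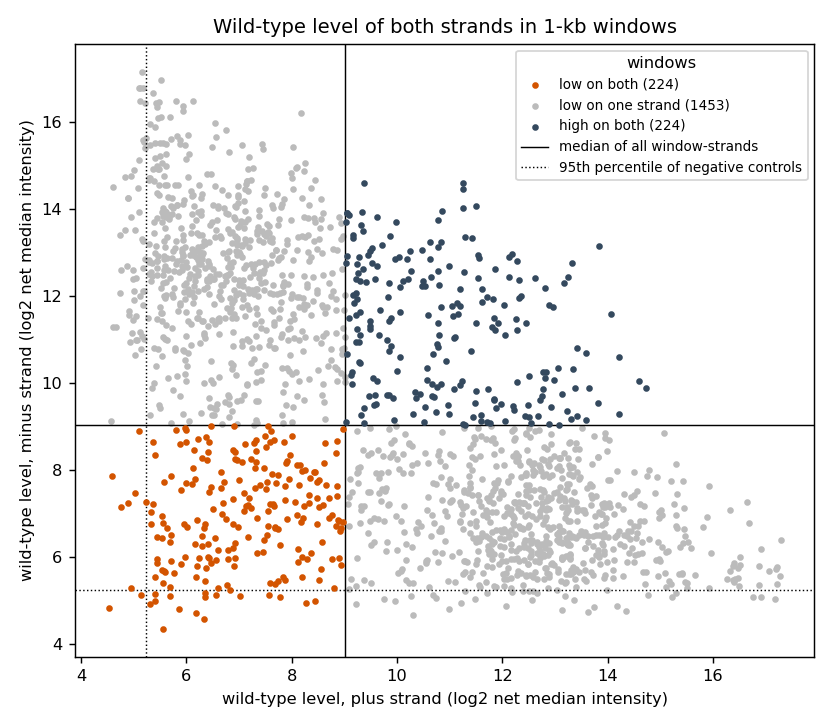
Wild-type level of the plus strand (horizontal axis) and the minus strand (vertical axis) of each of the 1901 windows, in log2 net median intensity averaged over both arrays; 1 point is 1 window, solid lines mark the threshold of 9.02, and dotted lines the mean over both arrays of the 95th percentile of negative control spots. The 224 windows low on both strands fill the lower left square, and most of them lie above the dotted lines on both strands.

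The windows were low, but few were without signal, so they are called low on both strands here and not silent. The arrays held 507 negative control spots, and their 95th percentile served as a floor in each channel. On the asf1-1 array, 3 of 448 window-strands were at or below this floor in asf1-1 and 29 in wild type. On the ∆hip1 array, 15 window-strands were at or below it in ∆hip1 and 36 in wild type. Both strands together were at or below the floor in no window in asf1-1 and 2 in wild type on the same array, and in 2 windows in ∆hip1 and 4 in wild type on its array. The scanner software called 87.0% of the windows' probes well above background in asf1-1 and 65.6% in wild type on that array, and 75.8% in ∆hip1 and 65.5% in wild type on the other. Over all windows of the interval these shares were 95% in asf1-1 and 81.4% in its wild type, and 90.4% in ∆hip1 and 80.5% in its wild type. Red channels were brighter than green ones before normalization, with a median log2 ratio over probes of 0.84 in asf1-1 and 0.14 in ∆hip1, so levels were compared between channels by rank or after normalization.

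The 6 dimmest windows by their brighter strand stayed low by rank in both mutants. Their highest strand stood at the 17.2nd percentile among all window-strands of the asf1-1 channel. The window starting at 1142001 had net levels on its plus strand (1142061 to 1143020) of 4.98 in asf1-1 and 4.61 in wild type on that array, and of 4.0 in ∆hip1 and 4.44 in wild type on the other. Its minus strand (1142011 to 1142970) had 6.10 in asf1-1 and 5.32 in wild type, and 3.97 in ∆hip1 and 4.34 in wild type. The normalized log2 ratios of both strands lay between 0.05 and 0.12 on both arrays. Among the 6 dimmest windows, which start at 1142001, 2792001, 2673001, 1805001, 2500001 and 2033001, the highest ratio was on the plus strand of the window at 1805001, at 0.61 in asf1-1 and 0.66 in ∆hip1. With median centring that strand had 1.51 in asf1-1 and 1.12 in ∆hip1, and with the scanner's own ratio 1.45 and 2.06, all past 2-fold. Of its probes, 90% were well above background in asf1-1 and 80% in ∆hip1. In wild type 20% were beside asf1-1 and 10% beside ∆hip1, so the size of the change is poorly known.

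The mutant channels took no part in the choice of windows. Applied to the asf1-1 channel alone, the same rule left 207 of the 224 windows (92.4%) low on both strands, where 18.8% of all 1901 windows were low on both. In the ∆hip1 channel 212 of 224 (94.6%) were low on both strands, where 18.1% of all windows were. The mutant lists were longer than the wild-type list, with 357 windows in asf1-1 and 345 in ∆hip1, and the 224 windows made up 58.0% and 61.4% of them. The windows that joined the mutant lists numbered 150 in asf1-1 and 133 in ∆hip1, and 139 and 124 of these were low on 1 strand in wild type.

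Retention was also counted in channels that had no share in the choice. Of 232 windows chosen on the wild type of the ∆hip1 array alone, 214 (92.2%) were low on both strands in asf1-1 and 211 (90.9%) in wild type on the asf1-1 array. Of 220 windows chosen on the wild type of the asf1-1 array alone, 207 (94.1%) were low on both strands in ∆hip1 and 211 (95.9%) in wild type on the ∆hip1 array. On each array the shares in the mutant and the wild-type channel lay within 2 percentage points, but the lists they were read against differ in length. In all, 357 windows were low on both strands in asf1-1 and 220 in wild type on that array. The numbers were 345 in ∆hip1 and 232 in wild type on its array. A longer list keeps more of any choice, so the shares do not rank the channels. When windows were chosen on every other probe and read on the probes between them, 181 of 231 (78.4%) were low on both strands in asf1-1 and 159 (68.8%) in wild type on that array. In the same reading 183 (79.2%) were low on both in ∆hip1 and 164 (71.0%) in wild type on its array. The readings in the wild-type channels were added after the data had been seen.

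Ranks within a channel are given as a description, because the wild-type levels behind the wild-type ranks are those that chose the windows, so the shifts below are not independent of the rule. The median percentile of the 448 window-strands among all 3802 was 18.5 in asf1-1 and 28.3 in wild type on the same array. It was 19.3 in ∆hip1 and 28.6 in wild type on its array. The percentile was lower in asf1-1 than in wild type by a median of 6.61 points (a shift of -6.61) and lower in ∆hip1 by 7.02 points (-7.02). A fall of 25 points or more was found in 27 window-strands (6.03%) in asf1-1, against 2.34% of all window-strands, and in 9 (2.01%) in ∆hip1, against 0.789% of all. A rise of 25 points or more was found in 8 (1.79%) in asf1-1, against 4.89% of all, and in 3 (0.67%) in ∆hip1, against 3.13% of all. The low strands of windows low on 1 strand stood the other way round, with a median percentile of 28.2 in asf1-1 and 24.1 in wild type, and of 27.7 in ∆hip1 and 23.8 in wild type.

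**Figure D2:**
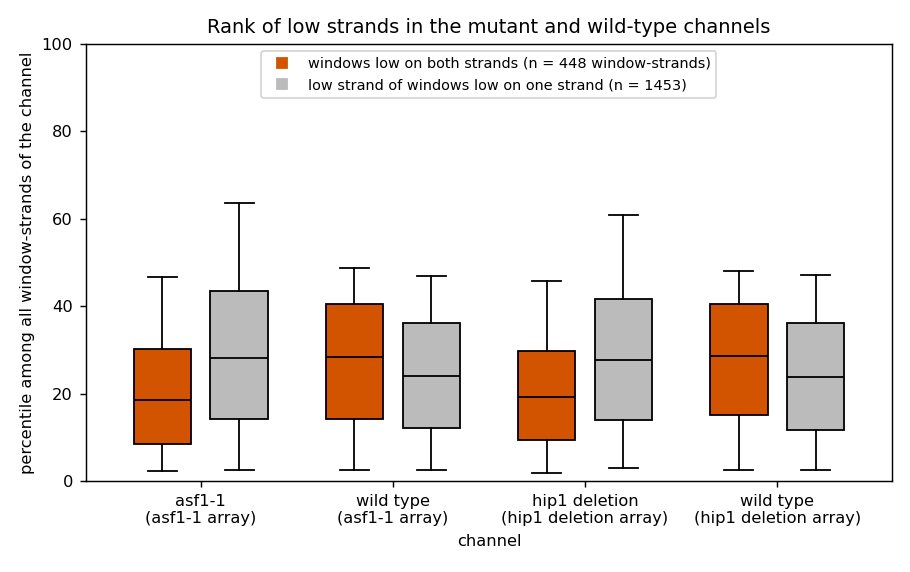
Percentile of low strands among all window-strands of a channel (vertical axis) in asf1-1, wild type of the asf1-1 array, ∆hip1 and wild type of the ∆hip1 array; boxes span the 25th to 75th percentile with the median as a line, whiskers run from the 5th to the 95th. Window-strands of windows low on both strands (orange) have a median of 18.5 in asf1-1 against 28.3 in wild type and 19.3 in ∆hip1 against 28.6 in wild type, while the low strands of windows low on 1 strand (grey) have higher medians in the mutants than in wild type.

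Few of the windows reached the upper part of a mutant channel. In asf1-1, 2 of 224 had a strand above the 75th percentile of the channel, where 49.1% of all windows did. In ∆hip1 none did, where again 49.1% of all windows did. When windows were chosen on every other probe and read on the probes between them, these counts were 15 of 231 in asf1-1 and 13 of 231 in ∆hip1. The 17 windows that left the low class in asf1-1 passed its middle level by 0.50 log2 units in the median and by at most 1.84, and the 12 that left it in ∆hip1 by 0.71 in the median and by at most 0.92. Most departures were therefore by less than 1 log2 unit.

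Normalized log2 ratios were compared next. Loess normalization sets the middle ratio of probes of like brightness near 0, so each ratio is relative to equally bright probes of its array, and it is not independent of the rule, because the wild-type signal that chose the windows is its denominator. The median over the 448 window-strands was -0.15 in asf1-1, with a range of -2.19 to 3.54, and 277 of them lay below 0. In ∆hip1 the median was also -0.15, with a range of -1.69 to 2.97, and 294 lay below 0. Over all 3802 window-strands the median was 0.00 on each array.

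Increases of 2-fold or more were less frequent in windows low on both strands than in the interval as a whole. They were found in 20 of 448 window-strands (4.46%) in asf1-1, where 11.9% of all window-strands were 2-fold higher, and in 17 (3.79%) in ∆hip1, where 12.1% were. A low share was not particular to the members. The high strands of windows low on 1 strand had 2.75% in asf1-1 and 1.72% in ∆hip1. Most increases of the interval lay on the low strands of those windows, 339 of 452 in asf1-1 and 365 of 461 in ∆hip1. Decreases of 2-fold or more were found in 35 window-strands (7.81%) in asf1-1, against 6.37% of all, and in 21 (4.69%) in ∆hip1, against 3.02% of all. The share of decreases in asf1-1 was thus near that of all window-strands. Counts per window were made for the members only, so no share over all windows stands beside them. No member was 2-fold higher on both strands in either mutant. With so few strands 2-fold higher, this is not read as a result about the members. In asf1-1, 20 windows were 2-fold higher on 1 strand, 33 were 2-fold lower on 1 or both, and 174 were neither. In ∆hip1, 17 were 2-fold higher on 1 strand and 189 were neither. The strands of a window differed in ratio by 0.43 in asf1-1 and 0.34 in ∆hip1 in the median window.

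The shares depended on how the arrays were scaled, but the members' share of increases lay under that of all window-strands under each scaling. With median centring, which leaves the dependence on brightness in place, 67 (15.0%) were 2-fold higher in asf1-1, against 25.5% of all, and 31 (6.92%) in ∆hip1, against 19.5% of all. With a loess curve drawn through bright probes only, 61 (13.6%) were 2-fold higher in asf1-1, against 21.3% of all, and 27 (6.03%) in ∆hip1, against 15.5% of all. Against windows high on both strands the order was not kept in asf1-1. Their share was 11.8% under the ordinary loess, above the members', but 11.6% with median centring and 12.1% with the bright-probe curve, below the members'. In ∆hip1 it was 12.1%, 10.3% and 12.3%, above the members' each time. Decreases did not keep their place. With median centring 6 window-strands (1.34%) were 2-fold lower in asf1-1, against 19.6% of all, and 1 (0.22%) in ∆hip1, against 9.21% of all. With the bright-probe curve 12 (2.68%) were 2-fold lower in asf1-1, against 5.1% of all, and 10 (2.23%) in ∆hip1, against 2.37% of all. That curve moved the median of all window-strands to 0.26 in asf1-1 and 0.18 in ∆hip1, and the members' median to 0.37 and 0.22, so that the members lay above all window-strands where they lay below them under the ordinary loess.

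The members were then set beside strands that were as dim in wild type but lay opposite a bright strand. This comparison was added after the data had been seen. Of the 1453 low strands of windows low on 1 strand, 339 (23.3%) were 2-fold higher in asf1-1 and 365 (25.1%) in ∆hip1, and their median ratios were 0.41 and 0.34. Both groups were divided at the quartiles of the members' wild-type level, which gave 4 classes with 112 members each. In the dimmest class, from 4.34 to 6.09, 3.57% of members and 16.6% of low strands opposite a bright strand were 2-fold higher in asf1-1. In the next class, up to 6.99, the shares were 6.25% of members and 24.3% of the other low strands. In the third class, up to 7.91, they were 4.46% and 31.1%, and in the brightest class, up to the threshold, 3.57% and 23.3%, members given first. In ∆hip1 the members' shares over the classes were 1.79%, 5.36%, 5.36% and 2.68%, and those of the other low strands 10.6%, 27.8%, 37.8% and 29.5%. The members' share was the lower in each of the 4 classes on both arrays.

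The ranks in the mutant channels gave the same order. A rank itself uses no wild-type value, but the groups and the 4 classes were set by the wild-type levels of both arrays. The ranks are therefore not independent of the rule. In asf1-1 the median percentile in the 4 classes was 5.01, 14.6, 24.3 and 29.4 for members and 11.6, 27.1, 40.1 and 44.2 for low strands opposite a bright strand. In ∆hip1 it was 4.79, 13.8, 24.9 and 30.7 for members and 10.1, 25.9, 39.4 and 43.5 for the other low strands. What separates the groups was not tested. They differ by definition in the signal of the opposite strand, and carry-over of signal from a bright strand to its complement was not measured here.

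**Figure D3:**
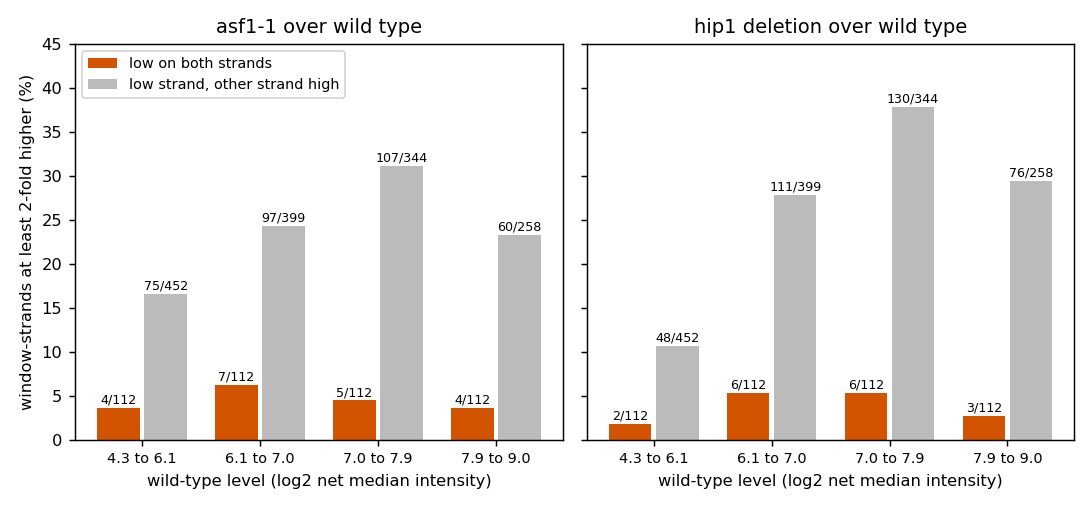
Percent of window-strands at least 2-fold higher than wild type (vertical axis, from 0) in asf1-1 (left) and ∆hip1 (right), by wild-type level in log2 net median intensity (horizontal axis); orange bars are strands of windows low on both strands, grey bars are low strands opposite a high strand, and labels give the count of each. The orange bar is the shorter in each of the 4 classes in both panels.

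Stretches shorter than a window were counted as well. A run of at least 3 consecutive probes past 2-fold higher was found in 55 window-strands (12.3%) in asf1-1, against 18.7% of all window-strands, and in 49 (10.9%) in ∆hip1, against 18.0% of all. In 35 and 32 of these the window's own median stayed under 2-fold, so the increase covered less than the window. The low strands opposite a bright strand held such runs in 35.0% of cases in asf1-1 and 34.6% in ∆hip1. Runs of at least 3 consecutive probes past 2-fold lower were found in 84 window-strands (18.8%) in asf1-1, against 12.5% of all, and in 62 (13.8%) in ∆hip1, against 6.94% of all. At least 3 consecutive probes at or above the channel median were found in 95 of the 224 windows in asf1-1 and 127 in wild type on the same array, and in 100 in ∆hip1 and 121 in wild type on its array. Runs of this last kind were counted in the members only.

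The largest increase was on the plus strand of the window at 1486001 (1486061 to 1487020). Its net log2 level was 12.74 in asf1-1 and 6.92 in wild type on that array, and 10.68 in ∆hip1 and 6.02 in wild type on the other. This gave log2 ratios of 3.54 ± 1.84 in asf1-1 and 2.97 ± 1.55 in ∆hip1 (SD over 9 probes, which covers differences between spots and not between cultures), that is 11.6-fold and 7.86-fold. With median centring the log2 ratio was larger, at 4.41 in asf1-1 and 3.72 in ∆hip1, and the scanner's own ratio gave 4.43 and 3.83. It stood at the 79.4th percentile in asf1-1 and the 22.9th in wild type, and at the 61.7th in ∆hip1 and the 18.3rd in wild type. The increase had an edge inside the window. The 6 probes used between 1486061 and 1486720 had ratios of 2.87 to 4.20 in asf1-1 and 1.89 to 3.33 in ∆hip1, and the 3 probes between 1486761 and 1487020 had 0.01 to 0.36 in asf1-1 and -0.26 to 0.19 in ∆hip1. The window before it on the same strand, which was low on 1 strand, had a ratio of 3.39 in asf1-1 and 2.93 in ∆hip1. The opposite strand of the window, which is one of the 3 just under the threshold, had -0.85 in asf1-1 and -0.82 in ∆hip1.

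The minus strand of the window at 2260001 (2260011 to 2260970) was the next. Its net level was 11.81 in asf1-1 and 8.07 in wild type, and 10.55 in ∆hip1 and 7.37 in wild type. The ratio was 2.05 ± 1.94 in asf1-1 and 2.12 ± 1.55 in ∆hip1 (SD over 10 probes). Here too the change began inside the window. The probes at 2260011 and 2260111 had -1.26 and -2.53 in asf1-1 and -0.56 and -1.33 in ∆hip1, and the 6 probes from 2260411 on had 2.00 to 3.09 in asf1-1 and 2.10 to 3.14 in ∆hip1. The next window on the strand (2261011 to 2261970) had 2.71 in asf1-1 and 2.64 in ∆hip1.

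**Figure D4:**
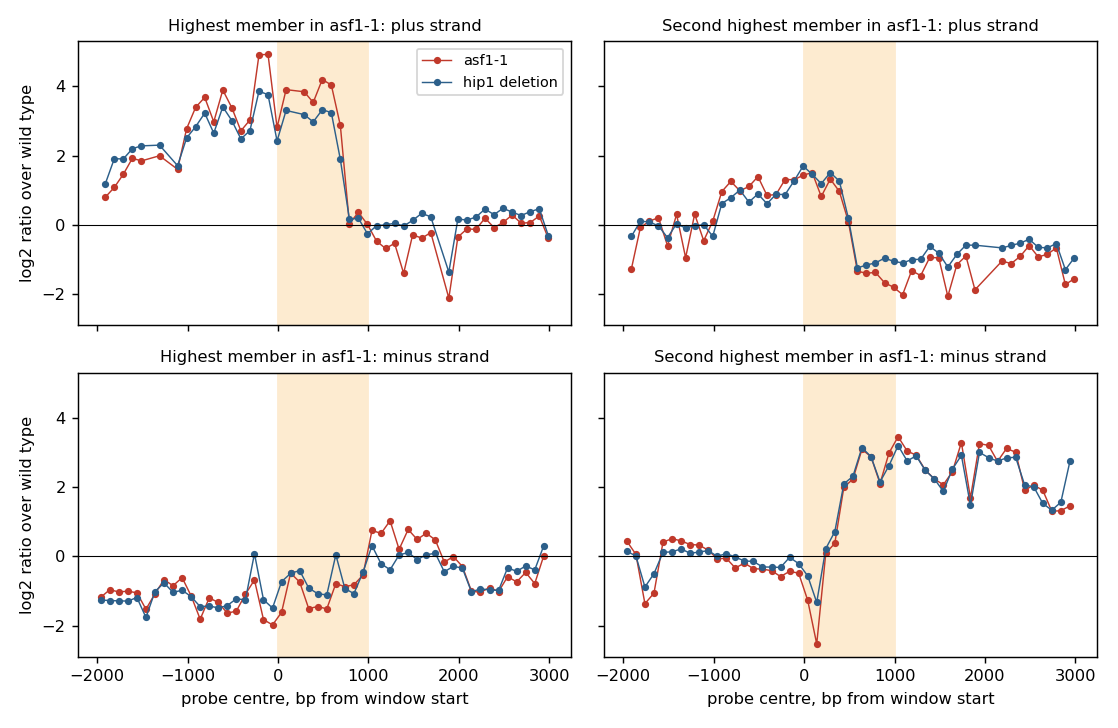
Log2 ratio over wild type of each probe (vertical axis) from 2 kb before to 2 kb after the member windows with the highest ratios in asf1-1, at 1486001 (left) and 2260001 (right), against the distance of the probe centre from the window start in bp (horizontal axis); the upper row is the plus strand, the lower row the minus strand, red is asf1-1, blue is ∆hip1, and shading marks the member window. On the raised strand the ratio falls to near 0 inside the left window after 6 probes at 2.87 to 4.20 in asf1-1, and it climbs inside the right window to between 2.00 and 3.09 in asf1-1.

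Increases of 2-fold or more had a raised neighbour on the same strand more often than other members' strands did. Where they lay within a longer increase was not counted. Neighbours were counted for the members only, so no share over all window-strands stands beside these counts. They are not read as particular to the members. Of the 20 window-strands 2-fold higher in asf1-1, 16 (80%) had a neighbouring window 2-fold higher on the same strand, as did 101 of the 428 others (23.6%). In ∆hip1 it was 11 of 17 (64.7%), and 91 of the 431 others (21.1%). The raised neighbour was a low strand opposite a bright strand for 10 of the 16 in asf1-1 and 7 of the 11 in ∆hip1, and another window low on both strands for 2 on each array. Neighbouring windows adjoin, so these counts are a description and are not of independent cases. Among decreases, 12 of 35 in asf1-1 (34.3%) and 11 of 21 in ∆hip1 (52.4%) had a neighbour 2-fold lower on the same strand. Of the other window-strands, 46 of 413 (11.1%) and 22 of 427 (5.15%) did.

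On the minus strand, the window at 2538001 (2538011 to 2538970) and the one that follows it were both more than 2-fold higher in both mutants, and both were low on both strands in wild type. The net level was 10.60 in asf1-1 and 6.53 in wild type, and 9.53 in ∆hip1 and 5.99 in wild type. The ratio was 1.51 ± 0.72 in asf1-1 and 2.10 ± 1.05 in ∆hip1 (SD over 10 probes), with every probe above 0 on both arrays, from 0.62 to 2.58 in asf1-1 and 0.71 to 3.25 in ∆hip1. The window that follows it had 1.47 in asf1-1 and 2.10 in ∆hip1, while the one before it, low on both as well, had 0.03 and 0.09. On the opposite strand of 2538001 the ratio was -0.87 in asf1-1 and -1.0 in ∆hip1.

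The plus strand of the window at 1382001 (1382061 to 1383020) had net levels of 10.88 in asf1-1 and 7.82 in wild type, and of 10.63 in ∆hip1 and 7.65 in wild type. Its ratio was 1.19 ± 1.52 in asf1-1 and 2.15 ± 1.61 in ∆hip1, and the window before it had 1.60 and 2.21. The plus strand at 1255001 (1255061 to 1256020) had net levels of 10.98 in asf1-1 and 6.62 in wild type, and of 8.99 in ∆hip1 and 5.98 in wild type, with a ratio of 1.72 ± 0.95 in asf1-1 and 1.26 ± 0.94 in ∆hip1. Each of these SDs is as large as a difference of 1 log2 unit or nearly so. At 1382001 the probes ran from -1.17 to 2.75 in asf1-1 and from -0.63 to 3.05 in ∆hip1. At 1255001 they ran from -0.03 to 2.62 in asf1-1 and from -0.12 to 2.27 in ∆hip1. The cause of this spread was not tested.

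The other strands with the highest ratios lay between 0.73 and 1.55. The plus strand at 1955001 had 1.55 ± 0.74 in asf1-1 and 1.05 ± 0.51 in ∆hip1, next to a window with 2.21 and 2.09. The plus strand at 2663001 had 1.54 ± 1.02 in asf1-1 and 0.73 ± 0.61 in ∆hip1. In ∆hip1 only 40% of its wild-type probes were well above background, and the computed bound on that change was at least 1.64-fold. Set against the wild type of the asf1-1 array, its log2 ratio in ∆hip1 was 0.24, so the bound is not a firm minimum. The plus strand at 1058001 had 1.52 ± 1.16 in asf1-1 and 1.21 ± 1.02 in ∆hip1, and that at 1589001 had 1.38 ± 1.03 and 1.45 ± 0.94. At 1403001 the plus strand had 1.27 ± 1.33 in asf1-1 and 1.44 ± 1.29 in ∆hip1, and at 2787001 it had 1.20 ± 0.59 and 1.42 ± 0.79. The minus strand at 1283001 had 1.23 ± 0.74 in asf1-1 and 1.36 ± 0.70 in ∆hip1. With median centring the ratios of the 12 strands named here for the highest values ran from 1.65 to 4.41 in asf1-1 and from 1.38 to 3.72 in ∆hip1. Of the 20 and 17 increases, 3 in asf1-1 and 2 in ∆hip1 had under 50% of their wild-type probes well above background.

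The minus strand of the window at 2883001 (2883011 to 2883970) reached the 76.7th percentile in asf1-1 and the 40.7th in wild type, and the 61.4th in ∆hip1 and the 41.1st in wild type. Its median ratio was only 0.72 ± 2.01 in asf1-1 and 0.48 ± 1.45 in ∆hip1. The 4 probes from 2883611 on had 2.86 to 4.0 in asf1-1 and 2.43 to 2.87 in ∆hip1, and the 5 probes before 2883511 had -2.13 to 0.15 in asf1-1 and -1.12 to 0.18 in ∆hip1. A change over less than the window was thus hidden in its median.

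**Figure D5:**
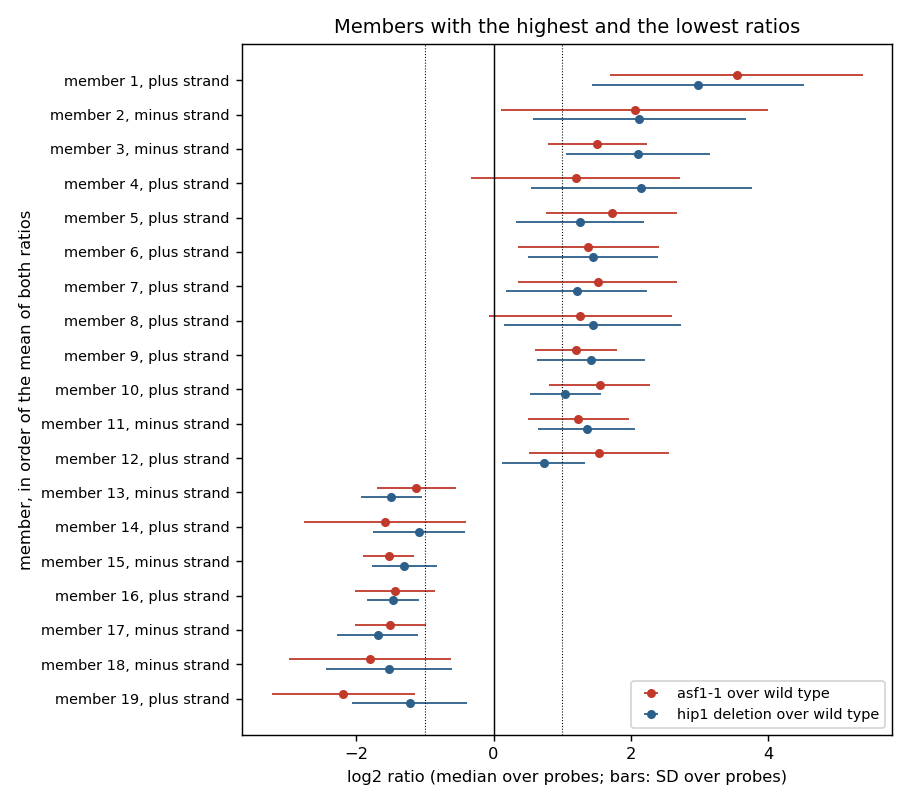
Log2 ratio over wild type (horizontal axis) of the member window-strands with the highest and the lowest ratios of each array, ordered from top to bottom by the mean of both ratios; points are medians over probes, bars the SD over probes, red is asf1-1, blue is ∆hip1, and dotted lines mark 2-fold. Member 1 is the plus strand at 1486001 with 3.54 in asf1-1 and 2.97 in ∆hip1, member 2 the minus strand at 2260001, member 3 the minus strand at 2538001, and member 19 the plus strand at 2436001 with -2.19 in asf1-1 and -1.22 in ∆hip1.

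The lowest ratios lay mostly on the brighter members. The plus strand at 2436001 (2436061 to 2437020) had net levels of 8.03 in asf1-1 and 8.56 in wild type, and of 6.93 in ∆hip1 and 7.65 in wild type, with a ratio of -2.19 ± 1.04 in asf1-1 and -1.22 ± 0.83 in ∆hip1 (SD over 9 probes). The window after it had -2.24 in asf1-1 and -1.66 in ∆hip1. The minus strand at 2740001 had -1.80 ± 1.17 in asf1-1 and -1.53 ± 0.92 in ∆hip1. The adjoining minus strands at 2302001 and 2303001 had -1.50 ± 0.52 and -1.12 ± 0.57 in asf1-1 and -1.69 ± 0.59 and -1.49 ± 0.44 in ∆hip1. The plus strands at 2842001 and 2534001 had -1.58 ± 1.18 and -1.44 ± 0.58 in asf1-1 and -1.09 ± 0.67 and -1.46 ± 0.38 in ∆hip1, and the minus strand at 2705001 had -1.53 ± 0.37 and -1.30 ± 0.47. With the 224 windows split by the mean level of their strands, the brighter 112 held 14 of the increases and 26 of the decreases in asf1-1, and 13 and 17 in ∆hip1. The dimmer 112 held 6 and 9 in asf1-1 and 4 and 4 in ∆hip1. In the dimmest class of wild-type level, from 4.34 to 6.09, 0 of 112 member window-strands were 2-fold lower on either array. The same held for 0 of 452 low strands opposite a bright strand. The lack of decreases on the dimmest strands was thus not particular to the members. Ratios carry the normexp offset given under processing. Whether a 2-fold fall could be called on such dim strands was not tested. With median centring, the strands at 2302001, 2303001, 2534001 and 2705001 were between -0.33 and -0.66 in asf1-1, so these 4 were no longer 2-fold lower there. In ∆hip1 only the strand at 2302001 stayed 2-fold lower with median centring, at -1.03. Those at 2436001, 2740001, 2303001, 2842001, 2534001 and 2705001 were between -0.60 and -0.97.

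The mutants' ratios were close to each other over these windows. The difference of asf1-1 minus ∆hip1 had a median of 0.00 and ran from -1.10 to 0.94, and both ratios may rest on the same wild-type RNA. None of the 448 window-strands was 2-fold higher in asf1-1 than in ∆hip1, where 0.658% of all were, and 1 was 2-fold lower, where 0.552% of all were. These shares are near those of all window-strands. Among strands on which at least 80% of the probes lay on 1 side, the difference was largest on the minus strand at 1940001, with 0.45 ± 0.47 in asf1-1 and -0.51 ± 0.20 in ∆hip1. The plus strand at 2889001 had 0.76 ± 0.26 in asf1-1 and -0.06 ± 0.17 in ∆hip1, and the minus strand at 1297001 had 1.14 ± 0.78 and 0.58 ± 0.57. The minus strand at 2791001 had 1.27 ± 0.60 in asf1-1 and 0.34 ± 0.20 in ∆hip1. Its computed bounds were at least 2.30-fold in asf1-1 and at least 1.14-fold in ∆hip1, which are not firm minima either. In the other direction, the plus strand at 2384001 had -1.37 ± 0.76 in asf1-1 and -0.36 ± 0.45 in ∆hip1, and the plus strand at 2009001 had -0.97 ± 0.79 and -0.08 ± 0.60. The minus strand at 1824001 had 0.18 ± 1.22 in asf1-1 and 0.72 ± 1.13 in ∆hip1, and the plus strand at 1283001 had -0.90 ± 0.31 and -0.45 ± 0.24. That last strand lies opposite the raised minus strand of the same window.

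The windows were spread over the interval. Each 100-kb stretch held between 2 and 16 of them, which was 4% to 16% of the 40 to 100 windows classified in it. Near an excluded interval, 15 of the 80 windows within 10 kb and 6 of the 40 within 5 kb were members. Both are larger shares than the 11.8% of the interval as a whole. They formed 177 runs of adjoining windows, of which 139 were 1 window long, 31 had 2, 5 had 3 and 2 had 4. Of the windows next to a member, 21.0% were members, 72.0% were low on 1 strand and 6.94% were high on both, where the interval as a whole had 11.8%, 76.4% and 11.8%.

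The 2 runs of 4 windows showed little change upward. Between 1750001 and 1754000 the median ratio was -0.24 on the plus and -0.10 on the minus strand in asf1-1, and -0.50 and -0.30 in ∆hip1. Between 2199001 and 2203000 it was -0.23 on the plus and -0.90 on the minus strand in asf1-1, and 0.03 and -0.75 in ∆hip1. There were 5 runs of 3 windows. In the run from 1149001 to 1152000 no ratio of either strand passed 0.30 in asf1-1 or -0.13 in ∆hip1. The run from 1805001 to 1808000 had a highest ratio of 0.88 in asf1-1 and 0.66 in ∆hip1. The run from 2537001 to 2540000, which holds the raised minus strand at 2538001, had a highest ratio of 1.51 in asf1-1 and 2.10 in ∆hip1. In the run from 2570001 to 2573000 the highest ratio was 0.20 in asf1-1 and 0.37 in ∆hip1, and in that from 2887001 to 2890000 it was 0.79 in asf1-1 and 0.17 in ∆hip1.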

How the data were processed

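Mutant and wild-type RNA were compared on 2 tiling arrays, 1 per mutant. Per the file headers, the authors read the spots with Agilent Feature Extraction 10.1.1.1. Median intensities of the spots and of their local background are deposited as read, without normalization. Per the file headers, the deposited log10 ratio comes after background subtraction and dye normalization, and its deposited p-value describes 1 spot. The authors' series table holds log2 values that match this ratio, with 0 entered for spots whose p-value exceeded 0.05.

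Wild-type and mutant levels are log2 of the net median intensity, at least 1, as in the selection rule. Ratios were made from median intensities with normexp (offset 50) and within-array loess in limma 3.58.1 under R 4.3.3, with control and outlier spots at weight 0. Of 43993 probes, 850 outliers were left out of ratios, and 1227 spots were controls. Dim probes were kept, so every member has a ratio. A window's ratio is the median over probes of 1 strand. Bounds were computed where under 50% of wild-type probes were well above background. They rest on 1 array per mutant and 1 normalization, so they are not firm minima. The number of arrays limits the precision.

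Named strands are, per array, the 8 highest and 4 lowest ratios with at least 5 probes and 80% of them on 1 side, and the 4 highest percentiles; the 4 largest differences between mutants each way; the longest runs; and the 3 windows nearest the threshold on each side. The members and rules were chosen with earlier results of these data known. Planned gene lists, sequence content and promoter motifs were not run, because no probe could be matched to a gene. Alternatives are given in the closing section. Window medians, the class rule and the 2-fold calls were tested on simulated data. Background correction, normalization and the later counts were not. Tables used pandas 2.3.3 and numpy 2.4.6 under Python 3.11.15, and figures used matplotlib 3.10.9.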

Additional observations from a re-analysis of the deposited data

How the results depend on the processing

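No paired analysis was possible because there was 1 array per mutant. Of 149 values recomputed under alternatives, 107 stayed within the bounds set (1.5-fold for counts, 0.25 log2 for medians). The members' share of 2-fold increases was under that of all window-strands in 15 of 15 alternatives on each array. In the main setting most increases of the interval lay on low strands opposite a bright strand. Against windows high on both strands, the order of the shares of increases in asf1-1 changed with the scaling. The members' share of decreases was above that of all window-strands in 12 alternatives and below it in 3 on each array. The members' median ratio, which is -0.15 on both arrays, changed sign to 0.23 in asf1-1 and 0.06 in ∆hip1 with median centring, and to 0.37 and 0.22 with the bright-probe curve. With the threshold at the 25th percentile it was 0.03 in asf1-1 and -0.02 in ∆hip1, and it was 0 on both arrays with the series table. Counts of 2-fold higher and lower window-strands, in that order, were 46 and 70 in asf1-1 and 33 and 94 in ∆hip1 with the scanner log ratio. They were 67 and 6, and 31 and 1, with median centring. They were 61 and 12, and 27 and 10, with the bright-probe curve, and 37 and 61, and 30 and 85, with the series table. Restricted to probes above background in all 4 channels they were 33 and 78, and 30 and 57, and with probes above background in at least 1 channel 32 were lower in ∆hip1. At 1.5-fold they were 47 and 93, and 29 and 81. With the threshold at the 25th percentile, 54 windows were members, with 3 and 1 in asf1-1 and 2 and 0 in ∆hip1. With alternate probes 15 members in asf1-1 and 13 in ∆hip1 had a strand above the 75th percentile. The cause of these moves was not tested, apart from the 25th percentile, which leaves fewer windows.

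The comparison with low strands opposite a bright strand was added after seeing the data. The share of 2-fold increases in those strands exceeded the members' by 18.9 percentage points in asf1-1 and 21.3 in ∆hip1, and by 15.6 to 41.5 and 14.4 to 37.5 over the alternatives. The excess was 33.6 in asf1-1 and 34.1 in ∆hip1 with the scanner log ratio, 41.5 and 37.5 with median centring, and, in asf1-1, 31.0 with the bright-probe curve, 32.5 with the series table and 30.9 at 1.5-fold. With members taken from the other array's wild type alone it was 19.1 in asf1-1 and 21.6 in ∆hip1.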

Other observations

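The scanner software's own p-value for each spot, which describes 1 spot and no replicate, was at or below 0.05 with a higher signal in the mutant for 22.7% of member probes in asf1-1, against 30.4% of all probes of the interval, and for 16.7% in ∆hip1, against 26.7%. With a lower signal in the mutant it was at or below 0.05 for 35.2% of member probes in asf1-1, against 33.8% of all, and for 38.5% in ∆hip1, against 30.6%. Of the members 2-fold higher on a strand, 13 were so on the plus strand and 7 on the minus strand in asf1-1, and 12 and 5 in ∆hip1. A member was 2-fold higher on 1 strand and 2-fold lower on the other in 3 cases in asf1-1 and 1 in ∆hip1. These counts by strand were made for the members only and have no share over all windows beside them.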
